A study of Mus musculus with 12 samples.

Results

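Genes of cholesterol and fatty acid synthesis that are known targets of the sterol regulatory element-binding proteins (SREBPs), or that control them, were followed in mouse colon. The members were 30 genes listed by symbol, 21 of the sterol branch and 9 of the fatty acid branch, and 26 of them had a probe named for that gene alone, 19 sterol and 7 fatty acid members, among 19505 named genes and 22206 probes. Tm7sf2, Acat2, Srebf1 and Scd2 were not analysed here. No filter on dim probes was used, so none of the 26 measured members was left out on its level, and each was represented by 1 probe. Colons came from male mice without illness, aged 12 to 16 weeks. The 4 genotypes were a double knockout of LAO1 and IL4i1, a LAO1 knockout, an IL4i1 knockout and the wild type, with 3 Affymetrix arrays each and 12 in all. Both genes encode L-amino acid oxidases, enzymes that oxidise amino acids to keto acids. How the alleles were made, the tissue or cell range of the deletion and the strain background are not given in the sources used here. The labels state that 4 mice were picked per genotype, and whether an array held the RNA of 1 mouse is not given, so the p-values rest on the scatter between samples, part of which may be technical.

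SREBPs are membrane-bound transcription factors that are held in the endoplasmic reticulum by SCAP and INSIG proteins when sterols are plentiful. When sterols run low they move to the Golgi, are cut, and enter the nucleus, where SREBP2 mainly drives the sterol pathway and SREBP1c mainly the fatty acid pathway. The colon epithelium makes its own sterols and long-chain fatty acids while its cells are renewed, and the desaturases of the pathway supply polyunsaturated fatty acids for membranes and lipid mediators.

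The deposited values were on a log2 scale, so a difference of 1 stands for a doubling, and levels of different probes were not set against each other. Array medians lay between 5.42 and 5.49. On the first principal component the IL4i1 knockout replicate 2 stood apart at 68.9, while the other 11 arrays lay between -40 and 20.7. On the second, double knockout replicate 1 stood apart at -61.7, while the other 11 lay between -29.9 and 25.7. Double knockout replicate 2 carried markers of pancreatic acinar cells, with a mean log2 level of 15.58 over the 9 measured of 11 markers, against 4.53 to 5.37 on the other 11 arrays. The 8 epithelial markers averaged 15.52 to 15.71 in the 4 genotypes, which matches the labelled tissue. Lao1 had a probe at the dim end of the scale, with means of 3.4 or less, and its difference between the LAO1 knockout and the wild type was 0.01 on the log2 scale, so it did not check the genotype. Il4i1 was not analysed here, and the genotypes rest on the labels. In whole colon, fewer cells of a type and less RNA per cell cannot be told apart.

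Fads1, the delta-5 desaturase that makes arachidonic and eicosapentaenoic acid from less unsaturated precursors, was the member that passed the test, and it did so in 2 of the 6 comparisons. Its log2 level was 8.98, 8.29 and 7.78 on the double knockout arrays, 7.32, 7.16 and 7.35 on the LAO1 knockout arrays, 6.58, 6.10 and 6.55 on the IL4i1 knockout arrays and 8.20, 8.33 and 7.61 on the wild-type arrays. The double knockout and wild-type arrays overlapped at the top, the LAO1 knockout arrays lay below both, and the IL4i1 knockout arrays lay lowest of all. The means were 8.35 ± 0.60 in the double knockout, 7.28 ± 0.10 in the LAO1 knockout, 6.41 ± 0.27 in the IL4i1 knockout and 8.05 ± 0.38 in the wild type (SD, n = 3 each). Tests were run with limma in 1 fit across all 12 arrays, and Benjamini-Hochberg adjustment covered all 22206 probes.

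Fads1 was 3.84-fold higher in the double knockout than in the IL4i1 knockout, a log2 difference of 1.94 (SE 0.29) with a limma adjusted p of 0.00928. Over all probes 0.477% passed the test in that comparison. The call ended when the fit held only the 6 arrays compared, with an adjusted p of 0.1, and held in each of the 6 fits that left out 1 of those arrays, with adjusted p from 0.00632 to 0.04999. The last value came without IL4i1 knockout replicate 2, where the difference was 1.79. The smooth muscle marker list (8 of 8 measured) averaged 14.15 to 14.76 on the double knockout arrays, against 14.64 to 15.87 on the IL4i1 knockout arrays, and its part in the result was not tested. The proliferating cell list (8 of 9 measured) averaged 8.81 to 10.36 on the double knockout arrays and 8.10 to 8.49 on the IL4i1 knockout arrays, and its part was not tested either. The absorptive colonocyte list (6 of 6 measured) averaged 12.73 to 13.24 on the double knockout arrays, against 13.21 to 15.41 on the IL4i1 knockout arrays, and its part too was not tested.

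The interaction, which is the double knockout minus the LAO1 knockout minus the IL4i1 knockout plus the wild type, asked whether the combined loss differed from the sum of the single losses. For Fads1 it was 2.71 on the log2 scale (SE 0.41, adjusted p = 0.0113), where 0.23% of all probes passed. In each single knockout the difference from the wild type was below 0, at -0.77 for the LAO1 knockout (SE 0.29, adjusted p = 1) and -1.64 for the IL4i1 knockout (SE 0.29, adjusted p = 0.122), and neither passed on its own. All 3 arrays of each single knockout nevertheless lay below all 3 wild-type arrays. In the double knockout the difference from the wild type was 0.30 (adjusted p = 0.862), and it was -0.01 without double knockout replicate 1, the brightest array. Against the LAO1 knockout the double knockout differed by 1.07 (adjusted p = 0.335), with all 3 arrays above. Over all probes in that comparison, 6.25% had arrays above without overlap and 6.46% below. Each of the 12 fits with 1 array left out kept the interaction past the threshold, with values of at least 2.40 and adjusted p from 0.00866 to 0.0455. The comparisons share arrays, so these values are not independent of each other.

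**Figure D1:**
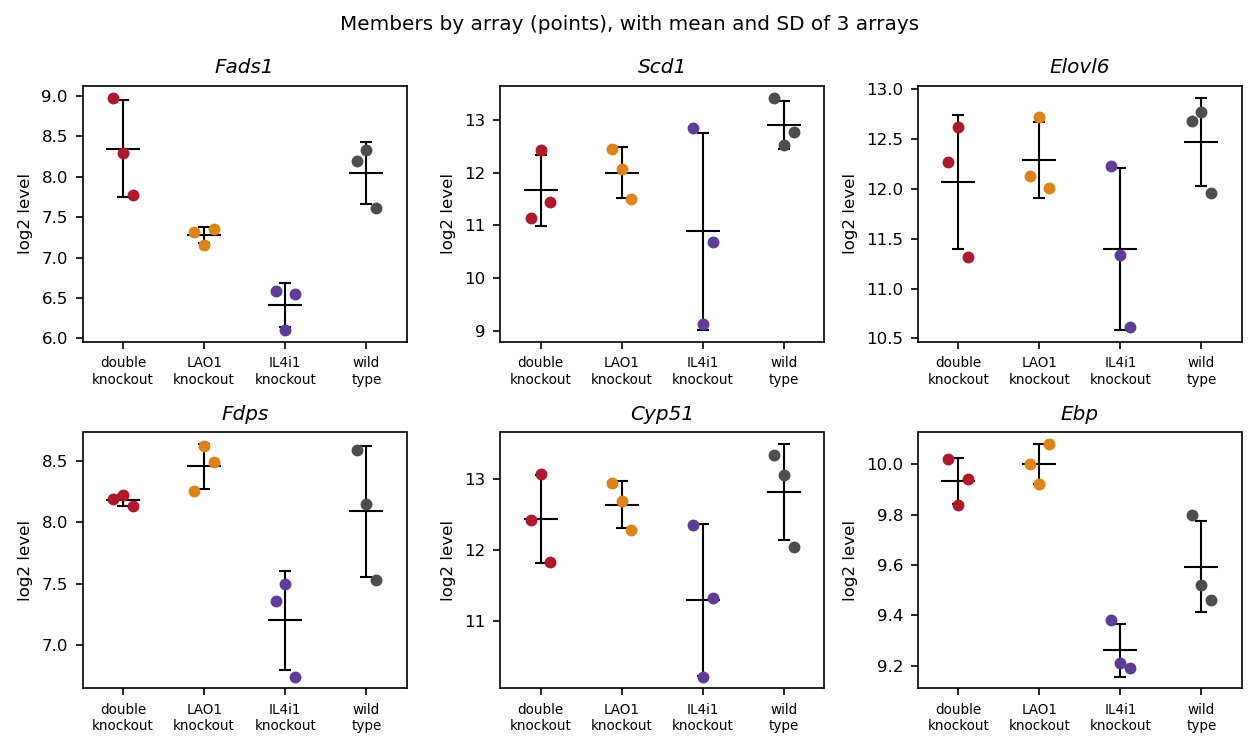
Log2 levels (y axis) of Fads1, Scd1, Elovl6, Fdps, Cyp51 and Ebp, 1 panel a gene, with genotypes along the x axis from double knockout to wild type, a point for each of 3 arrays, and a dash and bar for the mean and SD. Fads1 shows the IL4i1 knockout arrays at 6.10 to 6.58, below every other array, and Ebp shows them at 9.19 to 9.38, also below every other array.

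Fads1 lies on chromosome 19 beside Fads2 and Fen1, in the gene order Rab3il1, Fads3, Fads2, Fads1, Fen1, Tmem258 and Myrf. Fen1, the flap endonuclease of DNA replication and repair, is no member but lies next to Fads1. Its log2 level was 6.74, 6.11 and 6.67 for the double knockout, 5.35, 5.56 and 5.40 for the LAO1 knockout, 5.48, 5.23 and 4.56 for the IL4i1 knockout and 5.16, 4.66 and 4.37 for the wild type. Here the double knockout arrays lay above all 9 others, a different order of genotypes from that of Fads1. Fen1 was higher in the double knockout than in the IL4i1 knockout by 1.42 (SE 0.28, adjusted p = 0.0439), and its interaction was 0.71 (adjusted p = 0.779). Tmem258 differed by 1.05 between the double and the IL4i1 knockout (adjusted p = 0.25), while Rab3il1, Fads3 and Myrf differed by 0.15, 0.27 and 0.06.

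**Figure D2:**
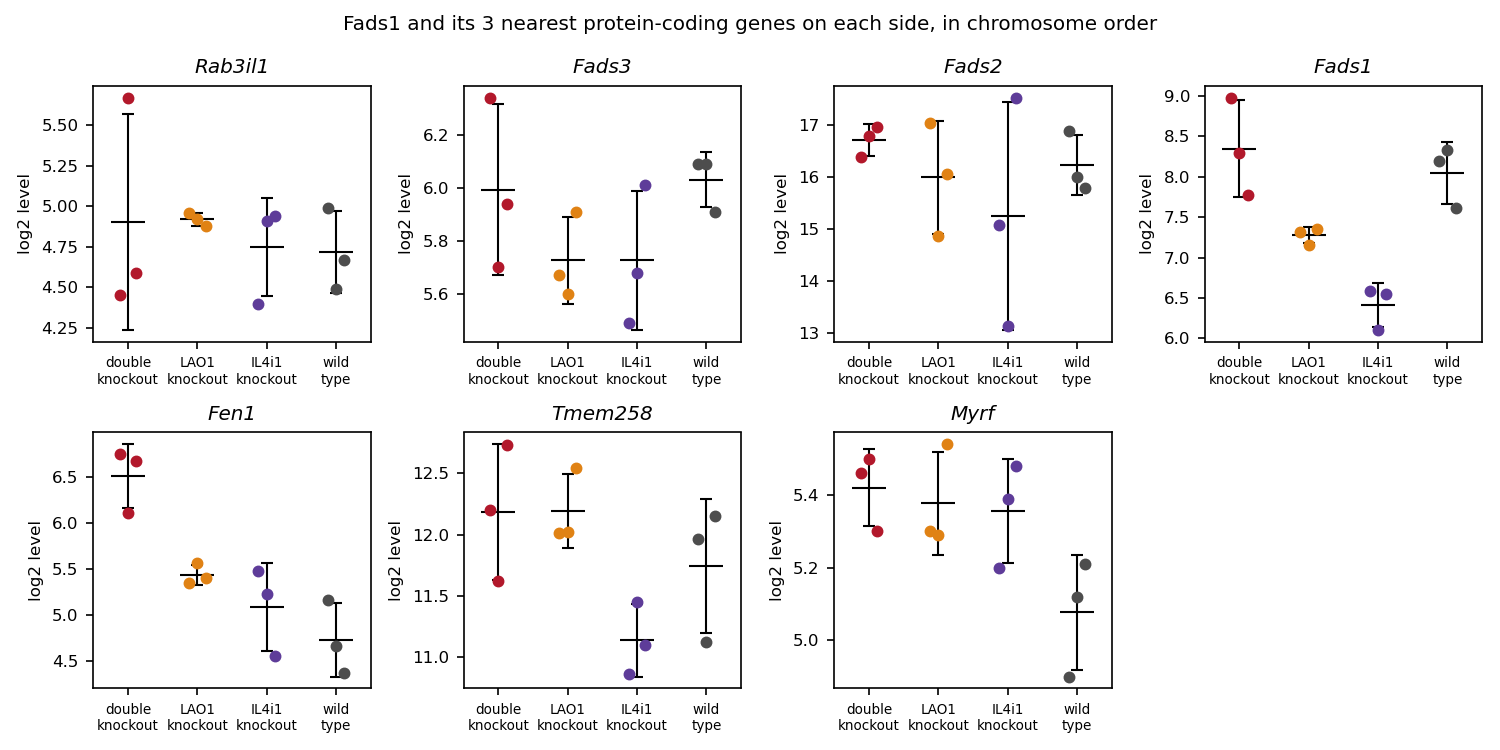
Log2 levels of Fads1 and the genes around it, 1 panel a gene in their order on chromosome 19, with a point for each array, and a dash and bar for each genotype's mean and SD on the log2 scale. Fen1 is highest in the double knockout at 6.11 to 6.74, while Fads1 is lowest in the IL4i1 knockout.

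Fads2, the delta-6 desaturase that carries out the first step of the same route, varied more between arrays. Its log2 level was 16.37, 16.79 and 16.96 for the double knockout, 17.04, 14.86 and 16.06 for the LAO1 knockout, 15.08, 13.14 and 17.52 for the IL4i1 knockout and 16.87, 16.00 and 15.78 for the wild type. The IL4i1 knockout held both the highest and the lowest of the 12 arrays, so all the groups overlapped with it. The difference between the double and the IL4i1 knockout was 1.46 with an SE of 0.82 (adjusted p = 0.605). It was 0.41 without IL4i1 knockout replicate 2 and 2.60 without IL4i1 knockout replicate 3 (adjusted p = 0.903 and 0.163). The interaction was 1.69 (adjusted p = 0.844).

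Scd1, the stearoyl-CoA desaturase that makes monounsaturated fatty acids, had its highest values in the wild type. Log2 levels of Scd1 were 11.13, 12.42 and 11.45 for the double knockout, 12.44, 12.06 and 11.49 for the LAO1 knockout, 12.85, 9.12 and 10.68 for the IL4i1 knockout and 13.42, 12.53 and 12.76 for the wild type. Every double knockout and LAO1 knockout array lay below every wild-type array, while IL4i1 knockout replicate 1 lay among the wild-type arrays. Over all probes, 5.95% lay below without overlap in the double knockout and 3.86% in the LAO1 knockout. The differences from the wild type were -1.24 in the double knockout (SE 0.69, adjusted p = 0.74), -0.91 for the LAO1 knockout (adjusted p = 1) and -2.02 for the IL4i1 knockout (adjusted p = 0.552), and none passed. Without IL4i1 knockout replicate 2, the IL4i1 knockout difference of Scd1 was -1.14. The interaction was 1.69 (SE 0.97, adjusted p = 0.792). Adipocytes also express Scd1: their list (9 of 10 measured) averaged 4.96 in the double knockout, 4.98 in the LAO1 knockout, 5.29 in the IL4i1 knockout and 5.71 in the wild type, and its part was not tested.

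The remaining fatty acid members supply or build the chain. Acly, which makes cytosolic acetyl-CoA from citrate, had log2 levels of 11.05, 10.65 and 11.53 for the double knockout, 11.42, 11.80 and 11.34 for the LAO1 knockout, 11.26, 9.87 and 11.07 for the IL4i1 knockout and 11.21, 10.61 and 11.39 for the wild type. Fasn, the fatty acid synthase, had 9.72, 9.55 and 9.46 for the double knockout, 9.56, 9.64 and 9.13 for the LAO1 knockout, 9.86, 8.33 and 9.40 for the IL4i1 knockout and 9.57, 9.15 and 8.87 for the wild type. The arrays of each comparison overlapped for both genes, and IL4i1 knockout replicate 2 was the lowest of the 12 arrays for both. Fasn differed by 0.38 in the double knockout against the wild type (adjusted p = 0.851), and Acly by -0.44 in the double against the LAO1 knockout (adjusted p = 0.868). Acaca, the acetyl-CoA carboxylase, averaged 8.63 in the double knockout, 8.95 in the LAO1 knockout, 8.41 in the IL4i1 knockout and 8.88 for the wild type. Elovl6, the elongase of saturated and monounsaturated chains, differed by -1.08 in the IL4i1 knockout against the wild type (SE 0.41, adjusted p = 0.593).

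Of the 19 measured sterol members, none passed the adjusted test in any of the 6 comparisons, and the smallest adjusted p ranged from 0.155 for the double against the IL4i1 knockout to 1 for the LAO1 knockout against the wild type. At an unadjusted p under 0.05 the counts were 0, 2, 5, 0, 10 and 0 for the double, LAO1 and IL4i1 knockouts against the wild type, the double against the LAO1 and against the IL4i1 knockout, and the interaction. In that order, the share of all probes at that unadjusted level was 3.63%, 1.45%, 3.25%, 3.51%, 5.17% and 3.87% higher and 3.81%, 1.57%, 4.34%, 3.64%, 4.66% and 3.26% lower. The share of all probes that passed the adjusted test was 0.0225%, 0.0045%, 0.0135%, 0.14%, 0.477% and 0.23% in the same order, so few probes of any kind passed. The sterol members also varied more within a genotype than most probes, with a median within-genotype SD of 0.48, against 0.50 for the fatty acid members and 0.32 for all probes.

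**Figure D3:**
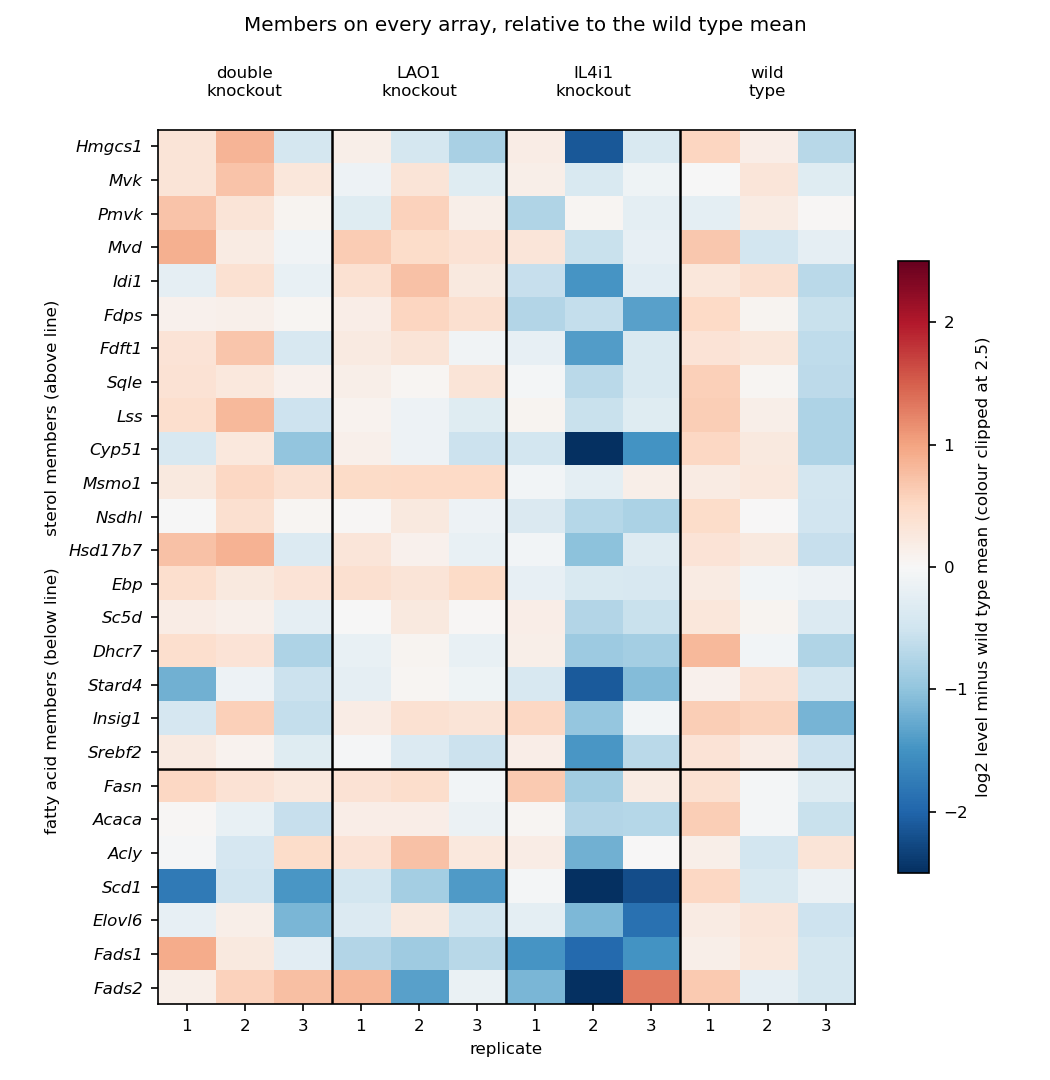
Log2 level of each measured member on each of the 12 arrays minus that gene's wild-type mean, with the colour scale clipped at 2.5 in either direction, sterol members above the line and fatty acid members below it, with arrays grouped by genotype. IL4i1 knockout replicate 2 is low across most rows, and it was the lowest array of its genotype for 15 of 19 sterol and 6 of 7 fatty acid members.

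The upstream sequence of 5 members is shown because a promoter is where SREBPs act. Hmgcs1 is shown for its sterol element, Fads2 as the desaturase beside Fads1, and Cyp51, Nsdhl and Ebp as sterol members described with array values. They were chosen after their values were seen, and Fads1, the member that passed the test, had no entry in the promoter table. Each line gives the 250 bases before the annotated start, 5′ to 3′ on the gene's strand, from RefSeq on GRCm38.p6, with capitals at TCACNCCAC (sterol regulatory element), CCAAT (NF-Y box), CACGTG (E-box) and GGGCGG (Sp1 box) on either strand.
Hmgcs1 chr13:119690101-119690350 (+): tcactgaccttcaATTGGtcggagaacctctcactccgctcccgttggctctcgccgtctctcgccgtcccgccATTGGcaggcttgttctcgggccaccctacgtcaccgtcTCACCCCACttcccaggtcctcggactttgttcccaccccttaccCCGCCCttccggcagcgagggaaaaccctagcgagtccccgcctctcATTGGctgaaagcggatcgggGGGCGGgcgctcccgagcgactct
Cyp51 chr5:4104698-4104947 (-): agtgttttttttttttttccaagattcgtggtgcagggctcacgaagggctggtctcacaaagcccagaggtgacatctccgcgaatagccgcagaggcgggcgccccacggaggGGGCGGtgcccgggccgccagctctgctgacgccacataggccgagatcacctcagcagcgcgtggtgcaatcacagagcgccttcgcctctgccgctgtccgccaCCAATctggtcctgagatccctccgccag
Nsdhl chrX:72918271-72918520 (+): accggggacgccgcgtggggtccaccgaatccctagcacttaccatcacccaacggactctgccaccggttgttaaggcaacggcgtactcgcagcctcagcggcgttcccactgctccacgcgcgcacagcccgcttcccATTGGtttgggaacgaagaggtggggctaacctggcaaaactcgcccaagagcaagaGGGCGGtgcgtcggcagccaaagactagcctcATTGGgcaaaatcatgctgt
Ebp chrX:8193513-8193762 (-): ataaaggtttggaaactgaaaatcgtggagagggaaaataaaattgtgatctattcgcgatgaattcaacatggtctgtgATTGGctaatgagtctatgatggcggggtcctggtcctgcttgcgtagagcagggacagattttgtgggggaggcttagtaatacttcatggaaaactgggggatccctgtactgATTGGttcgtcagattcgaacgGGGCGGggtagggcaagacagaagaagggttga
Fads2 chr19:10101504-10101753 (-): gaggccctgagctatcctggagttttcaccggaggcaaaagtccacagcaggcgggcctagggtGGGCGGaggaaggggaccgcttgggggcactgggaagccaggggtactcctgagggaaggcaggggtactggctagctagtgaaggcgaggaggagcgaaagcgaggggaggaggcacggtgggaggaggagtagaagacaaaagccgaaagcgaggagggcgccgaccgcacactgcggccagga
Hmgcs1, the cytosolic HMG-CoA synthase at the head of the sterol pathway, held the sterol element 137 bases before its start, with NF-Y boxes 237, 176 and 45 bases and Sp1 boxes 92 and 24 bases before it. Cyp51, Nsdhl and Ebp each held NF-Y and Sp1 boxes, and Fads2 held 1 Sp1 box. The sterol element was searched in 1 form only, so a promoter with no match cannot be said to lack one. No capitalised match overlapped another.

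Over the 20 measured members with a promoter entry, 1 held TCACNCCAC, against 1.22% of 27025 genes. The 27025 were all genes with an entry, whether or not the arrays measured them. A gene counted if any of its entries held the motif. CCAAT was present in 16 of 20, against 37.5% of all genes, GGGCGG in 16 of 20, against 35.4%, and CACGTG in 4 of 20, against 6.86%. Among the fatty acid members with an entry, Fasn held CCAAT, and Acly and Fads2 held GGGCGG. These are matches of letters in a 250-base window and say nothing of binding.

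In the IL4i1 knockout against the wild type, all 19 sterol differences were below 0, as were 6 of the 7 fatty acid differences, where 46.5% of all probes lay below 0 and 53% above. The exception was Fasn, whose group means were equal. Most members ran high or low on the same arrays within a genotype, so their signs are not independent, here or in the other comparisons. The median log2 difference was -0.48 for the sterol members and -0.97 for the fatty acid members, against 0.03 for all probes. Unadjusted, 5 sterol members (Idi1, Fdps, Cyp51, Nsdhl and Stard4) and 3 fatty acid members (Scd1, Elovl6 and Fads1) were lower at p under 0.05, against 4.34% of all probes. No member was higher at that level, against 3.25% of all probes, and none passed after adjustment. Without IL4i1 knockout replicate 2, 15 sterol members lay below the wild type and 4 above, 4 fatty acid members lay below and 3 above, and the medians were -0.25 and -0.34. Without wild-type replicate 1 the sterol members divided 15 below and 4 above, and without wild-type replicate 2, 16 below and 3 above. Only Fdps and Ebp among the sterol members, and Fads1 among the fatty acid members, had all 3 IL4i1 knockout arrays below all 3 wild-type arrays, where 5.16% of all probes did.

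Cyp51, the lanosterol demethylase, had the widest sterol difference in that comparison. Log2 levels of Cyp51 were 12.42, 13.08 and 11.83 for the double knockout, 12.95, 12.69 and 12.29 for the LAO1 knockout, 12.36, 10.21 and 11.32 for the IL4i1 knockout and 13.34, 13.07 and 12.05 for the wild type. IL4i1 knockout replicate 1 lay above wild-type replicate 3, so the groups overlapped. The difference was -1.52 (SE 0.49, adjusted p = 0.533), and -0.98 without IL4i1 knockout replicate 2. The interaction of Cyp51 was 1.32 (adjusted p = 0.75).

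Stard4, which carries cholesterol between membranes, had log2 levels of 11.77, 12.83 and 12.42 for the double knockout, 12.73, 13.01 and 12.85 for the LAO1 knockout, 12.56, 10.87 and 11.87 for the IL4i1 knockout and 13.07, 13.32 and 12.50 for the wild type. The wild-type arrays and the IL4i1 knockout arrays overlapped at a single pair, IL4i1 knockout replicate 1 and wild-type replicate 3. The IL4i1 knockout difference was -1.20 (SE 0.38, adjusted p = 0.533), and -0.75 without IL4i1 knockout replicate 2. In the double knockout Stard4 differed by -0.62 from the wild type (adjusted p = 0.77) and by -0.52 from the LAO1 knockout (adjusted p = 0.851).

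Fdps, the farnesyl diphosphate synthase at the branch point to sterols and prenylated proteins, did not depend on that array. Its log2 level was 8.19, 8.22 and 8.13 for the double knockout, 8.26, 8.62 and 8.49 for the LAO1 knockout, 7.36, 7.50 and 6.74 for the IL4i1 knockout and 8.59, 8.15 and 7.53 for the wild type. The IL4i1 knockout arrays lay below all 9 others by a narrow margin, 7.50 against 7.53 at the nearest pair. The difference from the wild type was -0.89 (SE 0.27, adjusted p = 0.524), and -1.04 without IL4i1 knockout replicate 2. Over the 6 fits that left out 1 of the compared arrays it ranged from -1.17 to -0.64. The double knockout was higher than the IL4i1 knockout by 0.98, which did not pass (adjusted p = 0.185). Against the LAO1 knockout all 3 double knockout arrays lay below, with a difference of -0.28 (adjusted p = 0.907), where 6.46% of all probes had arrays below without overlap and 6.25% had them above, as Fads1 did.

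Between the double and the IL4i1 knockout, all 19 sterol and all 7 fatty acid differences were above 0, where 46.9% of all probes were above and 52.6% below. The median was 0.66 for the sterol members and 0.68 for the fatty acid members, against -0.02 for all probes. Unadjusted, 10 sterol members (Mvk, Pmvk, Idi1, Fdps, Fdft1, Sqle, Cyp51, Nsdhl, Hsd17b7 and Ebp) were higher at p under 0.05, against 5.17% of all probes, and Fads1 was the fatty acid member that was. All 3 double knockout arrays lay above all 3 IL4i1 knockout arrays for 8 sterol members and for Fads1, where 6.05% of all probes did and 6.62% had them below. Without IL4i1 knockout replicate 2, 18 sterol differences were above 0 and 1 below, 4 of 7 fatty acid differences were above 0, and the medians were 0.41 and 0.09, with 4 sterol members at an unadjusted p under 0.05. Without double knockout replicate 2, the array with acinar markers, 18 of 19 and 7 of 7 were above 0, the medians were 0.60 and 0.41, and 4 sterol members were at that level.

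Ebp, the sterol isomerase that moves the double bond in the sterol ring, had the smallest adjusted p of the sterol members. Its log2 level was 10.02, 9.84 and 9.94 for the double knockout, 10, 9.92 and 10.08 for the LAO1 knockout, 9.38, 9.21 and 9.19 for the IL4i1 knockout and 9.80, 9.52 and 9.46 for the wild type. The 4 genotypes formed 3 tiers, with the double and the LAO1 knockout overlapping at the top, the wild type below them and the IL4i1 knockout lowest. The double knockout was higher than the IL4i1 knockout by 0.67 (adjusted p = 0.155). Against the wild type the differences were 0.34 in the double knockout (SE 0.18, adjusted p = 0.723), 0.41 for the LAO1 knockout (adjusted p = 1) and -0.33 for the IL4i1 knockout (adjusted p = 0.673).

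Nsdhl, the dehydrogenase that helps remove the C4 methyl groups of lanosterol, had log2 levels of 11.87, 12.29 and 11.92 for the double knockout, 11.91, 12.12 and 11.76 for the LAO1 knockout, 11.52, 11.17 and 11.09 for the IL4i1 knockout and 12.34, 11.89 and 11.41 for the wild type. The double knockout arrays lay above the IL4i1 knockout arrays, and the wild type overlapped both. The difference was 0.77 (SE 0.25, adjusted p = 0.27), and the interaction was 0.72 (adjusted p = 0.717). Nsdhl and Ebp both lie on the X chromosome, and all mice were male.

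Idi1, the isomerase that makes dimethylallyl diphosphate, had log2 levels of 10.06, 10.67 and 10.11 for the double knockout, 10.66, 11.01 and 10.54 for the LAO1 knockout, 9.72, 8.82 and 10.02 for the IL4i1 knockout and 10.57, 10.68 and 9.61 for the wild type. The double knockout arrays were above the IL4i1 knockout arrays by a narrow margin, 10.06 against 10.02 at the nearest pair. The difference was 0.76 (adjusted p = 0.494). Against the LAO1 knockout the double knockout differed by -0.46 (adjusted p = 0.853).

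Srebf2, which encodes SREBP2 itself, had log2 levels of 15.65, 15.53 and 15.13 for the double knockout, 15.41, 15.10 and 14.90 for the LAO1 knockout, 15.60, 13.97 and 14.76 for the IL4i1 knockout and 15.77, 15.61 and 14.92 for the wild type. The genotypes overlapped, and IL4i1 knockout replicate 2 was the lowest of the 12 arrays. The interaction was 0.96 (SE 0.50, adjusted p = 0.753). Insig1, a target of the pathway that holds it back, averaged 11.78 in the double knockout, 12.22 in the LAO1 knockout, 11.75 in the IL4i1 knockout and 11.92 for the wild type.

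**Figure D4:**
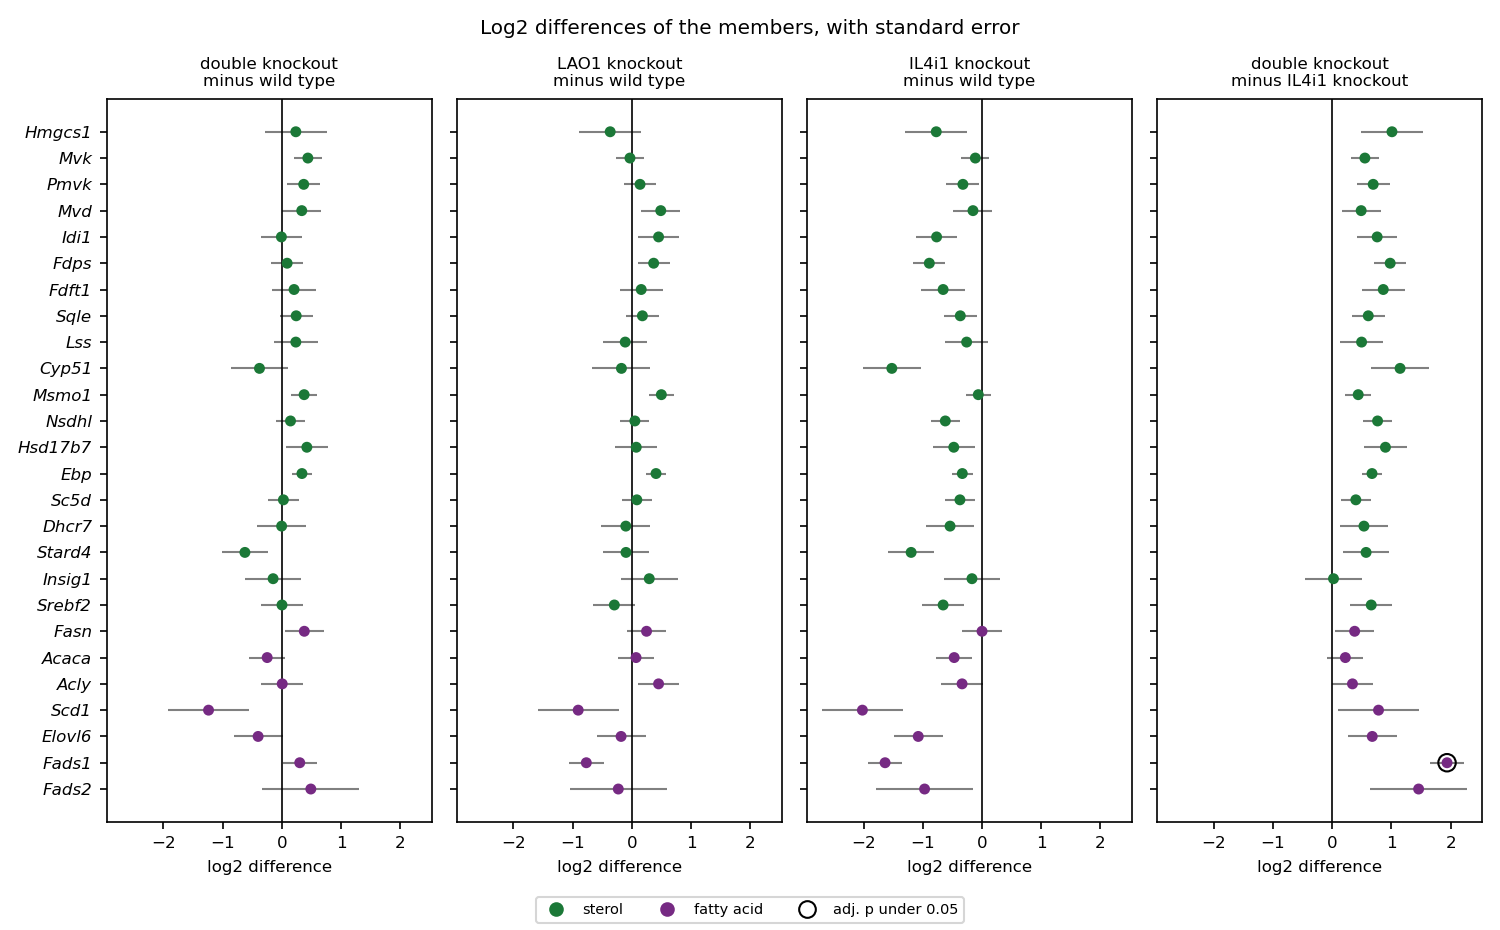
Log2 differences of each measured member (x axis) with standard errors, in panels for the double, LAO1 and IL4i1 knockouts minus the wild type and for the double minus the IL4i1 knockout, coloured by list, with a ring around a member that passed the limma test at an adjusted p of 0.05. Fads1 in the last panel, at 1.94, carries the ring, and all points of that panel lie right of 0.

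In the double knockout against the wild type, 14 sterol differences were above 0 and 5 below, and 4 fatty acid differences were above and 3 below, where 50% of all probes lay above and 49.5% below. No member reached an unadjusted p under 0.05, where 3.63% of all probes did as higher and 3.81% as lower. The medians were 0.21 for the sterol and 0.01 for the fatty acid members, against 0.00 for all probes, and the sterol median lay between -0.11 and 0.38 when 1 array was left out. It was below 0 without wild-type replicate 3 (-0.11, with 6 sterol members above and 13 below) and without double knockout replicate 2 (-0.03, with 9 above and 10 below). The fatty acid median lay between -0.22 and 0.22. Mvk, the mevalonate kinase, had log2 levels of 6.30, 6.68 and 6.26 for the double knockout, 5.85, 6.29 and 5.68 for the LAO1 knockout, 6.12, 5.60 and 5.86 for the IL4i1 knockout and 5.97, 6.27 and 5.68 for the wild type. The lowest double knockout array lay just under the highest wild-type array, and the difference was 0.44 (SE 0.24, adjusted p = 0.737). Against the LAO1 knockout it was 0.47 (adjusted p = 0.73). Ebp was the sterol member with all 3 double knockout arrays above the wild type, where 5.68% of all probes were, and Scd1 the fatty acid member with all 3 below, where 5.95% were.

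In the LAO1 knockout against the wild type, 12 sterol differences were above 0 and 7 below, and 3 fatty acid differences were above and 4 below, where 50.9% of all probes lay above and 48.5% below. The medians were 0.08 and -0.18. Neither direction held when 1 array was left out: the sterol median ranged from -0.18 to 0.28 and the fatty acid median from -0.44 to 0.10. Without wild-type replicate 3, 6 sterol differences were above 0 and 13 below, and the fatty acid median turned positive without wild-type replicate 1 (0.10) or LAO1 knockout replicate 2 (0.02). Msmo1, the sterol C4 methyl oxidase, and Ebp were higher at an unadjusted p under 0.05, where 1.45% of all probes were, and both had arrays that did not overlap, where 4.67% of all probes were so. Fads1 was lower at that level, against 1.57% of all probes, and it and Scd1 had all 3 arrays below the wild type, against 3.86%. The log2 level of Msmo1 was 8.53, 8.81 and 8.67 for the double knockout, 8.78, 8.80 and 8.79 for the LAO1 knockout, 8.22, 8.04 and 8.43 for the IL4i1 knockout and 8.49, 8.55 and 7.84 for the wild type. The LAO1 knockout arrays lay within a few hundredths of each other and the wild type ran lower, with a difference of 0.50 (SE 0.22, adjusted p = 1). In the double knockout the difference of Msmo1 from the wild type was 0.38 (adjusted p = 0.744).

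Mvd, the mevalonate diphosphate decarboxylase, had log2 levels of 9.11, 8.43 and 8.12 for the double knockout, 8.85, 8.68 and 8.58 for the LAO1 knockout, 8.51, 7.66 and 8.02 for the IL4i1 knockout and 8.90, 7.75 and 8.0 for the wild type. Every pair of these groups but the LAO1 and the IL4i1 knockout overlapped, and that pair was not tested. The LAO1 knockout differed from the wild type by 0.49 (adjusted p = 1). In the double against the LAO1 knockout, 10 sterol differences were above 0 and 9 below, and 3 fatty acid differences above and 4 below, with medians of 0.05 and -0.22, where 48.6% of all probes lay above and 50.9% below. With 1 array left out these medians ranged from -0.07 to 0.14 and from -0.36 to 0.16, so neither had a stable sign. Fads1 was the member at an unadjusted p under 0.05, where 3.51% of all probes were higher and 3.64% lower. In the interaction, 17 of 19 sterol and 6 of 7 fatty acid values were above 0, against 46.2% of all probes above and 53.4% below, with medians of 0.61 and 0.86 and with -0.04 for all probes. With 1 array left out the sterol median ranged from 0.36, without wild-type replicate 1, to 0.89, without wild-type replicate 3. The fatty acid median ranged from 0.47, without IL4i1 knockout replicate 3, to 1.28, without IL4i1 knockout replicate 1. Fads1 was again the member at an unadjusted p under 0.05, where 3.87% of all probes were higher and 3.26% lower.

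Within a genotype, most members ran high or low on the same arrays. Wild-type replicate 3 was the lowest of its genotype for 17 of 19 sterol members, where it was lowest for 35.7% of all probes, and double knockout replicate 3 was the lowest of its genotype for 14 of 19, against 31% of all probes. In the LAO1 knockout, replicate 3 was lowest for 10 of 19 sterol and 5 of 7 fatty acid members, against 30.9%. In the IL4i1 knockout, replicate 3 was lowest for 3 of 19 and 1 of 7, against 28.8%. IL4i1 knockout replicate 2 was lowest of its genotype for 15 of 19 sterol and 6 of 7 fatty acid members, against 35.8% of all probes, and IL4i1 knockout replicate 1 was highest for 15 of 19 and 6 of 7, against 34.1%. The mean log2 level over the 19 sterol members was 10.77, 10.99 and 10.37 for the double knockout, 10.71, 10.79 and 10.57 for the LAO1 knockout, 10.47, 9.59 and 10.07 for the IL4i1 knockout and 10.96, 10.74 and 10.05 for the wild type. The wild type and the IL4i1 knockout therefore overlapped in this mean, and the LAO1 knockout was the narrowest group. On IL4i1 knockout replicate 2 the smooth muscle markers averaged 15.87, the 8 epithelial markers 16.29 and the absorptive colonocyte markers 15.41, each the highest of the 12 arrays. The immune markers averaged 5.38 there. The part of these marker lists in the low sterol levels was not tested.

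**Figure D5:**
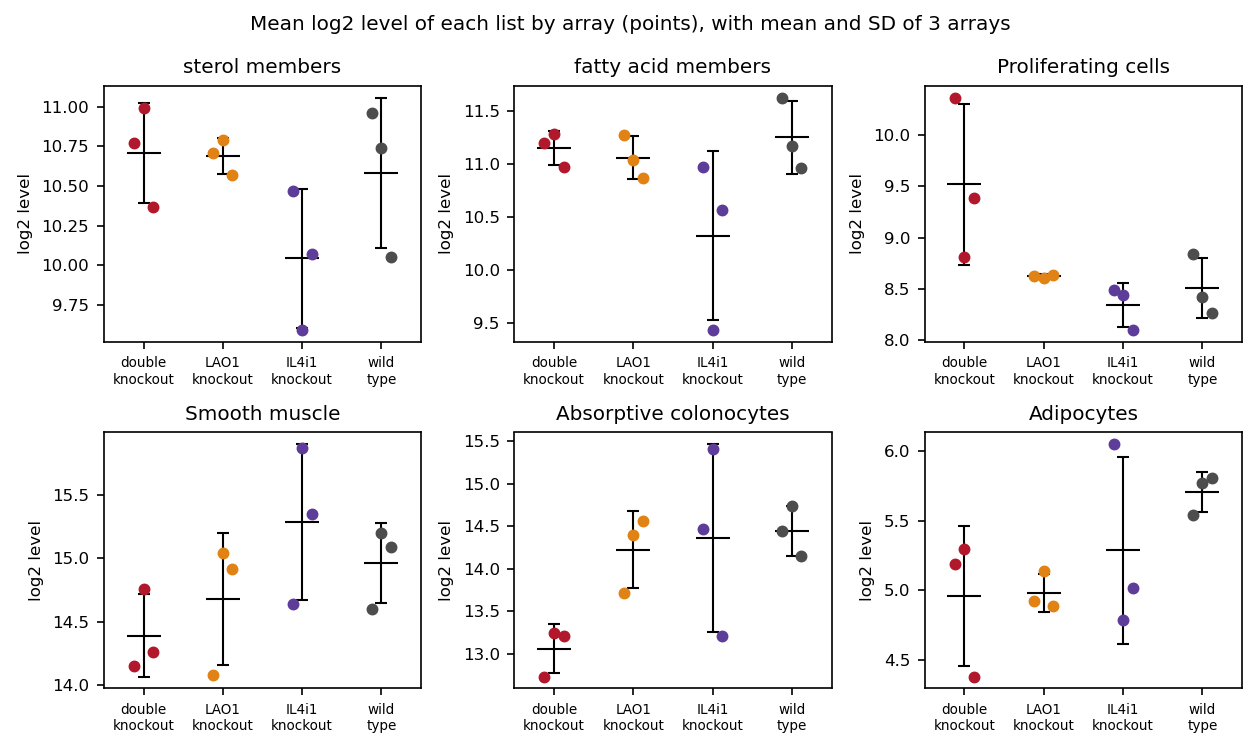
Mean log2 level over the measured genes of 6 lists, 1 panel a list, the members' lists and markers of proliferating cells, smooth muscle, absorptive colonocytes and adipocytes, with a point for each array, and a dash and bar for each genotype's mean and SD. The sterol mean is lowest on IL4i1 knockout replicate 2 at 9.59. On that array the smooth muscle mean, at 15.87, and the absorptive colonocyte mean, at 15.41, are both highest.

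Of the 39 other genes of the pathway, such as sterol transporters, further elongases and suppliers of NADPH and citrate, 30 were measured, and none passed the adjusted test in any of the 6 comparisons. Lbr, a sterol reductase of the nuclear envelope, differed by 0.91 in the double knockout against the wild type (adjusted p = 0.393) and by 1.03 against the IL4i1 knockout (adjusted p = 0.106), the smallest adjusted p of the list. Me1, the malic enzyme that supplies NADPH, differed from the wild type by 1.13 in the LAO1 knockout (adjusted p = 1) and by -1.14 with IL4i1 lost (adjusted p = 0.52). Elovl5, the elongase that works between the delta-6 and delta-5 desaturases, differed by -1.30 in the IL4i1 knockout against the wild type (adjusted p = 0.524), and its interaction was 1.66 (adjusted p = 0.493). Slc25a1, the citrate carrier, differed by 1.12 between the double and the IL4i1 knockout (adjusted p = 0.242), and Lpin1, a phosphatidate phosphatase, by -0.99 (adjusted p = 0.242). In the double against the LAO1 knockout, Me1 had the smallest adjusted p of the list, with a difference of -1.20 (adjusted p = 0.285) and all 3 double knockout arrays below. Abcg8, a partner in sterol export, differed by 0.77 between the double and the LAO1 knockout (adjusted p = 0.52). Its probe lay at the dim end of the scale, with means of 2.96 to 3.74 in the 4 genotypes. Mid1ip1, which promotes acetyl-CoA carboxylase assembly, differed by 0.88 in the same comparison (adjusted p = 0.518). At an unadjusted p under 0.05 the list held 1 higher and 0 lower in the double knockout and in the LAO1 knockout, and 0 higher and 2 lower in the IL4i1 knockout, each set against the wild type. It held 3 higher and 1 lower for the double against the LAO1 knockout, 5 higher and 1 lower against the IL4i1 knockout, and 4 higher and 0 lower in the interaction. Over all probes, the shares at that level were 3.63% higher and 3.81% lower for the double knockout, 1.45% and 1.57% for the LAO1 knockout and 3.25% and 4.34% for the IL4i1 knockout against the wild type. They were 3.51% and 3.64% for the double against the LAO1 knockout, 5.17% and 4.66% against the IL4i1 knockout and 3.87% and 3.26% in the interaction, so a count of 0 or 1 among 30 is close to what all probes gave.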

How the data were processed

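Expression was measured in whole colon of 4 genotypes with 3 arrays each. The authors deposited log2 expression values of 22206 probes, and Transcriptome Analysis Console is named in the submitters' processing notes; the normalization and the genome build are not given in the sources used here. Per the labels' protocols, biotin-labelled cRNA was made from 6 µg total RNA. Values were used as deposited. Probes were named through the platform annotation: 19572 had 1 symbol and 2634 none. limma 3.58.1 in R 4.3.3 was fitted to all 12 arrays with a mean per genotype, moderated with eBayes, for 6 comparisons. The script was tested on simulated data. Members named with array values were, per comparison, the 3 sterol and 2 fatty acid members with the smallest p. The alternatives were quantile normalization, trended and robust variances, the compared arrays alone, the replicate number as a block, bright probes alone, gene means, centring and leaving out each array. The number of arrays limits the precision. Members and lists were chosen with earlier results of these data known.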

Additional observations from a re-analysis of the deposited data

Results flagged for a closer look

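The difference between the double knockout and the LAO1 knockout was not the same for Fads1 as that between the IL4i1 knockout and the wild type. The interaction term of the limma fit was 2.71 on the log2 scale (adjusted p = 0.0113). It was past the threshold in each of the 12 fits that left out 1 array, with adjusted p up to 0.0455. Loss of IL4i1 went with a Fads1 difference of 1.07 in mice that lacked LAO1 and of -1.64 in mice that had it, and neither passed the adjusted test alone.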

How the results depend on the processing

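With only the compared arrays in the fit, 0 members passed in the double against the IL4i1 knockout, where Fads1 had an adjusted p of 0.1 and the smaller number of arrays leaves fewer residual degrees of freedom. Over fits that left out 1 array, the fatty acid median ranged from -1.19 to -0.34 in the IL4i1 knockout against the wild type and from 0.09 to 1.10 in the double against the IL4i1 knockout, and the value nearest 0 came each time without IL4i1 knockout replicate 2. The other 264 values that answer a comparison stayed within 1 SD or within 1.5 times. No difference of a named member changed sign past a threshold. Counts of members at an unadjusted p moved by over 1.5 times, or to or from 0, in 42 cases, so they carry little weight. Correlations between arrays with the same replicate number, taken on deviations from the genotype means, ran from -0.14 to 0.22. Of 18 pairs, 7 were over 0.1, the highest being replicate 3 of the double knockout and the wild type. No correlations of differently numbered arrays were computed for reference, so whether the numbers mark a pairing or a batch cannot be told. With the replicate block, Fads1 had adjusted p of 0.00863 in the double against the IL4i1 knockout and 0.0127 for the interaction, and the number of calls did not move. Signal over background is unknown, since the deposited values carry no detection call.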
